A study of Mus musculus with 6 samples.

Results

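The semaphorin, ephrin, Slit and netrin genes were taken as all genes whose single symbol matches the names of these ligand families or of their receptors, the plexins, neuropilins, Eph receptors, Robos and Unc5 receptors. The name rule found 72 genes among 18193 measured. They comprised 20 semaphorins, 9 plexins, 2 neuropilins, 8 ephrins, 13 Eph receptors, 3 Slits, 4 Robos, 6 netrins and 4 Unc5 receptors. The other 3 matched by name only: Unc50, Unc5cl and the antisense RNA gene Plxna4os1 are not known as guidance genes. Of the 72 protein-coding genes with such symbols in the RefSeq annotation, 71 had a value, and Ephb2 had none under a single symbol.

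Transgenic Balb/c pups, whose transgene the labels do not name, were set against wild-type Balb/c pups. Whole lenses were taken at an age of 2 days. Each of the 3 transgenic and 3 wild-type samples was hybridised to 1 Affymetrix array. A genotype used 12 lenses in all, and how these were shared out over its 3 samples is not given. The samples may therefore be technical repeats, and p-values reflect no more than their spread. The question is how carrying the transgene goes with RNA levels in the newborn lens.

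Guidance ligands and their receptors steer growing axons and vessels, and also set boundaries and contacts between epithelial cells. Ephrins are held on the membrane of one cell and bind Eph receptor tyrosine kinases on the next. Semaphorins signal through plexins, often with neuropilins as co-receptors, Slits through Robos, and netrins through Dcc, Neo1 and Unc5 receptors. In the lens the ephrin system is the best known of them: mutations of human EPHA2 cause inherited cataract, and mice without Efna5 develop cataract.

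All values below are quantile-normalised log2 values per array, given for replicates 1, 2 and 3 in that order, and a difference is the transgenic mean minus the wild-type mean. Deposited array medians ran from 5.29 to 5.37. The median of all normalised values was 5.34 and the lower quartile 4.18. Of the 72 genes, 56 had a mean at or above that median and 6 a mean below that quartile, where background limits what a difference can show. The 12 measured lens markers stood far above it, with means of 9.34 to 14.6. Transgenic replicate 3 stood apart in RNA of other tissues. Its 11 skin markers summed to 14.9 on the log2 scale, against 10.9 and 11.0 on the other transgenic arrays and 10.9 to 11.5 on the wild-type arrays. Its 12 skeletal muscle markers summed to 13.2, against 9.16 and 9.18 on the other transgenic arrays and 9.13 to 9.60 in wild type. Transgenic replicate 2 stood apart in part of another list. Its 10 retinal pigment epithelium markers summed to 12.5, against 11.0 and 11.6 on the other transgenic arrays and 11.2 to 11.4 in wild type. Of these markers, Tyr, Tyrp1, Dct, Mlana and Pmel were high there. Rpe65, Rlbp1, Best1 and Slc45a2 showed no comparable rise. Mitf, at 8.62 there, lay below the wild-type values of 8.99, 9.05 and 9.06. Which cells gave the higher values was not tested. Wild-type replicate 1 was the array farthest from the others of its group for 38 of the 72 genes.

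Few guidance genes differed between the genotypes. Unc5b and Plxnb3 were higher and Epha2 was lower in transgenic lenses, and 69 genes did not pass (limma, adjusted p under 0.05 over all genes). The 3 calls were 4.17% of the 72 genes. Of all 18193 genes, 352 were higher (1.93%) and 475 lower (2.61%), 4.55% in both directions together, so the guidance genes were called at about the rate of any gene. At an unadjusted p under 0.05 the counts were 11 higher and 6 lower, 23.6% of the 72, against 22.4% of all genes. The groups did not overlap for 18 of the 72 genes, 25% of them, against 28.8% of all genes. When arrays were centred on a common median instead, the calls over all genes were 252 higher and 666 lower, and of the guidance genes Plxnb3 and Epha2 alone passed. In whole lenses, fewer cells of a type and less RNA per cell cannot be told apart for any gene.

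Most differences were small, as they were over all genes. The median difference was 0.046 over the 72 genes and 0.011 over all genes, and the median absolute difference was 0.15 against 0.14. A difference of at least 0.5 in either direction was seen in 5 of the 72 genes, 6.94%, against 5.82% of all genes. None of the 72 reached a difference of 1, while 1.09% of all genes did. In simulated arrays of this design, 24% of changes of 0.5 and 87.6% of changes of 1 were recovered. Fewer genes were changed there than were called here, which makes the adjusted threshold stricter and may raise recovery here. The simulated variances followed those of all genes. The guidance genes varied more within groups, with a median SD of 0.162 against 0.132 over all genes, which may lower recovery for them. The 69 genes that did not pass are still not shown to be equal.

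**Figure D1:**
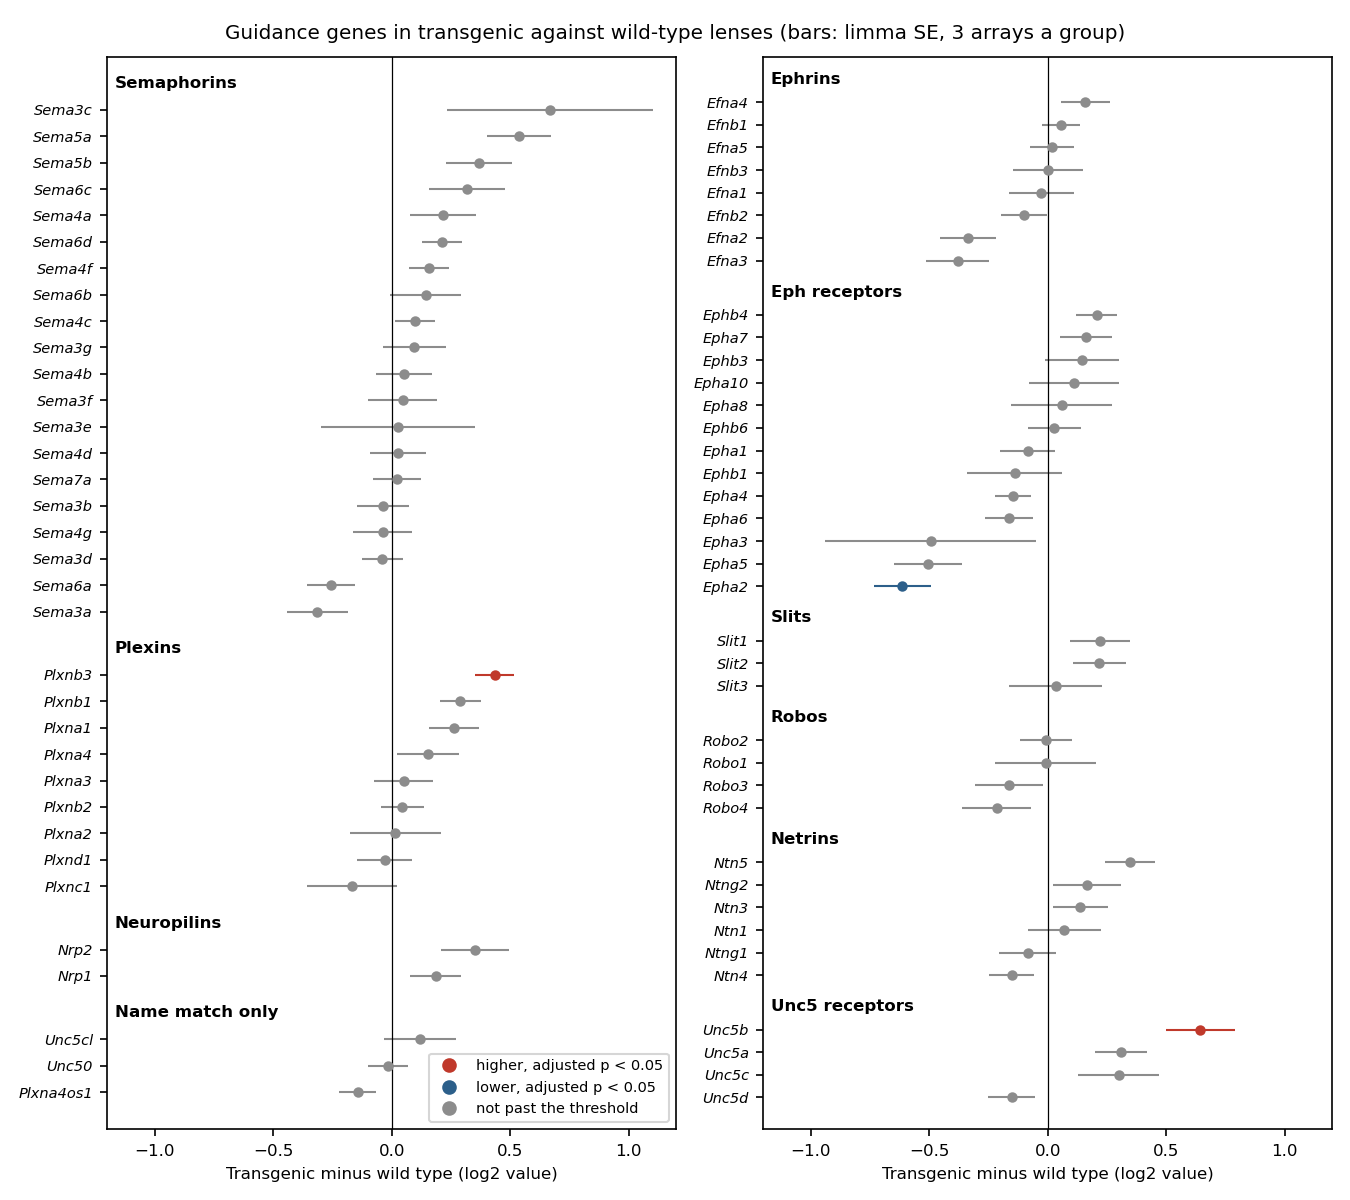
Difference of transgenic minus wild-type lenses (log2 value, horizontal axis) for each of the 72 genes by family, with limma's standard error as bars and 3 arrays in each group. Unc5b at 0.64 and Plxnb3 at 0.43 are the 2 genes past the threshold upward and Epha2 at -0.61 the 1 downward; the wide bars belong to Sema3c, Epha3 and Sema3e.

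**Figure D2:**
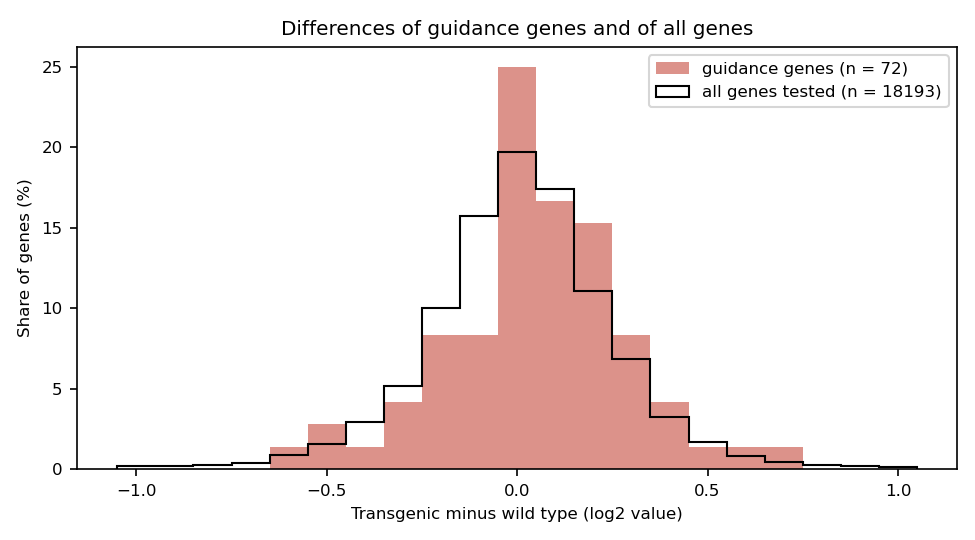
Share of genes (vertical axis, percent) in each range of the difference (horizontal axis, log2 value), for the 72 guidance genes as filled bars and all 18193 genes as an outline. The medians of 0.046 and 0.011 lie close to 0; differences beyond the axis, which only genes outside these families had, are not drawn.

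Epha2 is a receptor for A-class ephrins. It stood at 8.15, 8.10 and 8.04 in transgenic lenses and at 8.46, 8.78 and 8.89 in wild-type lenses. The 3 transgenic values lay close together and below every wild-type value. The means were 8.09 ± 0.05 and 8.71 ± 0.22 (SD, n = 3 each), and Epha2 fell by 0.61 ± 0.12 on the log2 scale (SE; limma adjusted p = 0.0323), to 0.653 of the wild-type level. It has 1 probe set here. With 1 array left out, the difference ran from -0.74 to -0.53 and the call held only without wild-type replicate 1, with adjusted p-values from 0.0128 to 0.118.

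The promoter of Epha2 is shown because the gene is the one member of the ephrin system past the threshold, and that of Unc5b because it had the largest difference of the 3 called genes. Both are the 250 bases before the RefSeq start in GRCm38.p6, read along the gene. The Epha2 window is chr4:141300971-141301220 on the plus strand, and the Unc5b window is chr10:60831582-60831831 on the minus strand. Capitals mark the GC box GGGCGG, the cyclic AMP response element TGACGTCA and the forkhead core TAAACA, searched on both strands. The forkhead core was included because the forkhead gene Foxe3 stood at 13.33, 13.42 and 13.39 in transgenic lenses and 8.54, 8.86 and 8.82 in wild-type lenses, while the response element was added after these letters were read.
Epha2: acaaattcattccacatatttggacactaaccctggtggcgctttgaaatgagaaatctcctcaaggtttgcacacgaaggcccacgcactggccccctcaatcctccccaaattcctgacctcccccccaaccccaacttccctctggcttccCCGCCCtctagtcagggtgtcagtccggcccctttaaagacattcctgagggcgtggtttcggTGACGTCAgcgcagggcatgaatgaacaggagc
Unc5b: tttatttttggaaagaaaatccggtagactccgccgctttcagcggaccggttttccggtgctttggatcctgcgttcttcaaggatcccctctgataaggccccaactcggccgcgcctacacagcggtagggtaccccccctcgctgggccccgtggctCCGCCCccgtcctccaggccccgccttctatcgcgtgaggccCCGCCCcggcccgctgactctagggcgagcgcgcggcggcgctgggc
The Epha2 window holds 1 GC box, on the reverse strand, and 1 cyclic AMP response element. The Unc5b window holds 2 GC boxes, also reversed. Neither holds the forkhead core. Among the promoter windows of 14452 measured genes, 53.4% had a GC box, 2.5% the response element and 10.8% the forkhead core. No binding was measured here. The listed Plxnb3 start lies inside the gene, so its window is not shown.

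No other Eph receptor passed. Epha5, a receptor of neurons and retina, had the next smallest p. It stood at 6.53, 6.48 and 6.02 in transgenic lenses and at 6.87, 6.93 and 6.74 in wild-type lenses, a difference of -0.51 ± 0.14 (SE; limma adjusted p = 0.0940). Its other probe sets differed by -0.78, -0.40 and -0.30, so all 4 lay below 0. Neural retina markers lay the same way, with 16 of 17 below 0, none called, a median of -0.34, and log2 sums of 12.0 to 12.7 in transgenic and 12.3 to 13.0 in wild-type lenses; their part in the Epha5 difference was not tested.

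Ephb4, the receptor of veins that binds Efnb2, stood at 7.17, 7.13 and 7.33 in transgenic lenses and 6.99, 6.97 and 7.05 in wild-type lenses. The groups did not overlap, but the difference of 0.21 ± 0.09 did not pass (SE; limma adjusted p = 0.217). Epha3 varied most within groups of all 72 genes: it stood at 4.30, 5.42 and 5.40 in transgenic lenses and 6.26, 5.75 and 4.60 in wild-type lenses. The remaining 9 Eph receptors had differences from -0.16 to 0.16, and the 13 together split into 6 above and 7 below 0.

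None of the 8 ephrin genes passed, with 4 differences on each side of 0. Efna5 stood at 8.70, 8.81 and 8.85 in transgenic lenses and 8.70, 8.71 and 8.90 in wild-type lenses, so its groups overlapped fully. Efnb2, the ligand of arteries, overlapped as well, with 10.12, 9.95 and 9.94 in transgenic and 10.22, 10.04 and 10.05 in wild-type lenses. Its dimmest probe set, at 6.38, 6.17 and 6.12 against 6.94, 6.58 and 6.52 in wild type, differed by -0.46 without passing among all probe sets (limma adjusted p = 0.0960). The largest ephrin differences were those of Efna3, at -0.38 ± 0.13, and Efna2, at -0.34 ± 0.12 (SE; limma adjusted p = 0.150 and 0.149). For Efna3 the groups overlapped through transgenic replicate 3, at 7.35, while the other transgenic values were 7.03 and 6.85 and the wild-type values 7.34, 7.500 and 7.53. A second probe set of Efna2 differed by only -0.013.

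Unc5b encodes a netrin receptor found on growing vessels and many epithelia. It stood at 7.22, 7.31 and 7.37 in transgenic lenses and at 6.95, 6.37 and 6.64 in wild-type lenses. The transgenic values were close together and the wild-type values spread, with wild-type replicate 1 nearest to them. The means were 7.30 ± 0.07 and 6.65 ± 0.29 (SD, n = 3 each), a rise of 0.64 ± 0.14 on the log2 scale or 1.56-fold (SE; limma adjusted p = 0.0495). The call lay at the edge of the threshold. It was lost on the values as deposited (adjusted p = 0.0787), after centring (0.101), with the mean of the gene's probe sets (0.105) and without any 1 array other than wild-type replicate 1 (0.0875 to 0.142). A second, dimmer probe set differed by 0.21. Markers of endothelium, where Unc5b is also known, summed to 11.1 to 11.3 in transgenic and 11.1 to 11.4 in wild-type lenses; 1 of the 15, Tek, rose (0.49), 4 lay above 0 and 11 below, and their part in the Unc5b difference was not tested.

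Unc5a and Unc5c, netrin receptors best known from neurons, differed by 0.31 ± 0.11 and 0.30 ± 0.17 (SE) and did not pass (limma adjusted p = 0.155 and 0.349). Unc5a stood at 6.44, 6.29 and 6.53 in transgenic lenses and 5.93, 6.25 and 6.14 in wild-type lenses, without overlap. Unc5d had all values below the lower quartile of the arrays. No netrin gene passed. Ntn5, a little-studied relative of the netrins, stood at 6.59, 6.57 and 6.68 in transgenic and 6.09, 6.43 and 6.26 in wild-type lenses, a difference of 0.35 ± 0.11 (SE; limma adjusted p = 0.107). Ntn4, a netrin of basement membranes, differed by -0.15 and Ntn3 by 0.14. Ntn1, the classical netrin, overlapped at its brightest probe set with a difference of 0.070. Its other probe set stood at 5.27, 4.97 and 6.83 in transgenic lenses and 4.99, 5.18 and 5.13 in wild-type lenses, high only on transgenic replicate 3, where the skin and muscle markers were high; their part in this value was not tested.

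**Figure D3:**
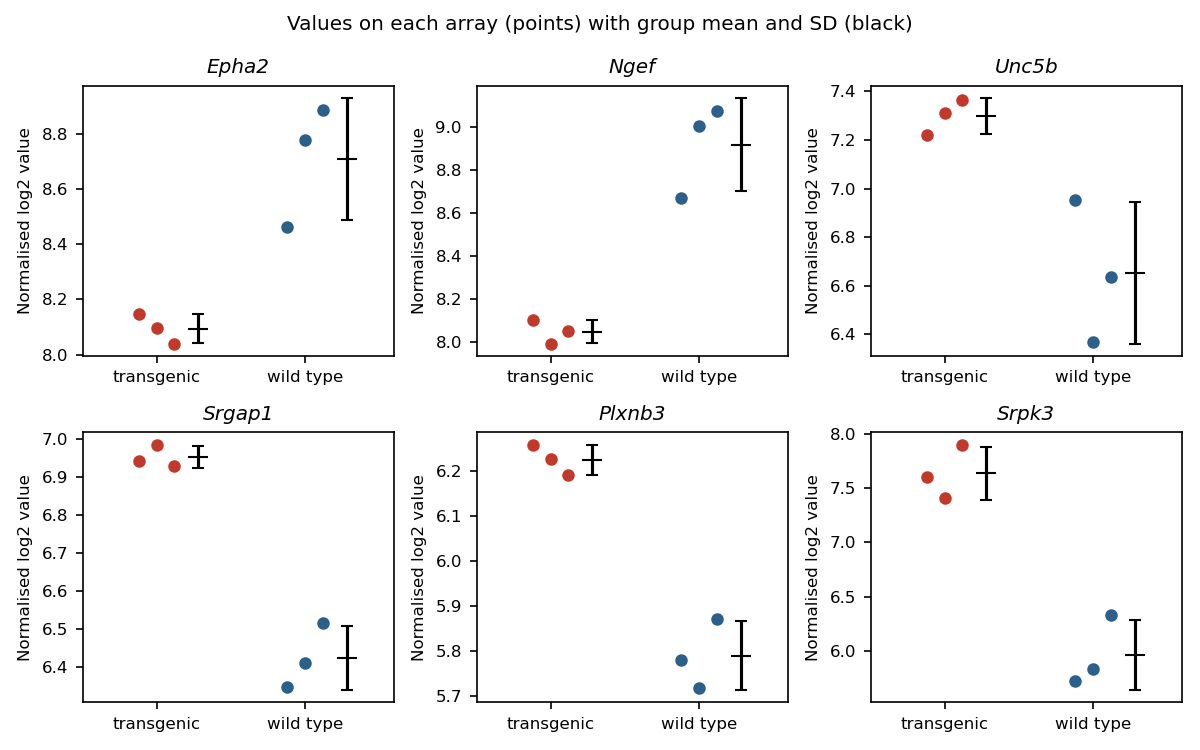
Normalised log2 value (vertical axis, a separate range in each panel) on each of 3 transgenic and 3 wild-type arrays as points, with mean and SD in black, for Epha2, Unc5b and Plxnb3, the effector genes Ngef and Srgap1, and Srpk3, the neighbour of Plxnb3. In none of the 6 genes did the groups overlap; Srpk3 shows the largest difference, 1.68.

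Plxnb3 encodes a plexin for which Sema5a is a known ligand. It stood at 6.26, 6.23 and 6.19 in transgenic lenses and at 5.78, 5.72 and 5.87 in wild-type lenses, with no overlap. The means were 6.22 ± 0.03 and 5.79 ± 0.08 (SD, n = 3 each), a rise of 0.43 ± 0.08 on the log2 scale or 1.35-fold (SE; limma adjusted p = 0.0300). A second, dimmer probe set stood at 5.12, 4.99 and 5.05 in transgenic lenses and 4.79, 4.58 and 4.91 in wild-type lenses, a difference of 0.30. The size changed little with any 1 array left out, from 0.40 to 0.47, but the call was lost each time (limma adjusted p from 0.0558 to 0.114). It was lost as well with the mean of the gene's probe sets (0.0561).

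The gene next to Plxnb3 on chromosome X in the RefSeq annotation is Srpk3, which encodes a kinase of splicing factors. Srpk3 stood at 7.60, 7.41 and 7.90 in transgenic lenses and at 5.72, 5.83 and 6.33 in wild-type lenses, a rise of 1.68 ± 0.18 (SE; limma adjusted p = 0.00332). A second Srpk3 probe set rose by 0.88 (limma adjusted p among all probe sets 0.00233) and 2 dim ones differed by 0.16 and 0.012. The part of Srpk3 transcripts in the Plxnb3 signal was not tested. The neighbours of Epha2 did not pass, with differences of -0.17 for Arhgef19 and 0.078 for Fam131c. Nor did those of Unc5b, with 0.40 for Slc29a3 and 0.0052 for Pcbd1.

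No other plexin was called. In this family 7 of 9 differences lay above 0, 77.8%, against 52.3% of all genes. On the deposited values the count was 5, 55.6%, against 50.2% of all genes. After centring it was 5 again, against 42.8% of all genes. Plxnb1, the receptor for Sema4d, stood at 8.65, 8.67 and 8.49 in transgenic lenses and 8.28, 8.37 and 8.29 in wild-type lenses. The groups did not overlap, with a difference of 0.29 ± 0.09 (SE; limma adjusted p = 0.105), while a second probe set differed by -0.068. Plxna1 differed by 0.26 with a second probe set at -0.054. Plxnd1, the plexin of vessels, overlapped with a difference of -0.030. The neuropilins, co-receptors of class 3 semaphorins, differed by 0.35 ± 0.14 for Nrp2 and 0.19 ± 0.11 for Nrp1 (SE), and neither passed (limma adjusted p = 0.204 and 0.349). Nrp2 was highest on transgenic replicate 3, at 6.49, against 5.97 and 6.12 on the other transgenic arrays and 5.76, 5.76 and 5.99 in wild type. Its other probe sets differed by 0.42, 0.76 and -0.25, and none passed among all probe sets. The one at 0.76 was dim and its groups did not overlap (limma adjusted p = 0.0647).

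Among semaphorins, Sema5a came nearest to the threshold. It encodes a membrane-bound semaphorin that acts as an attractant or a repellent. It stood at 9.91, 9.86 and 9.58 in transgenic lenses and 9.002, 9.39 and 9.35 in wild-type lenses, a difference of 0.54 ± 0.14 (SE; limma adjusted p = 0.0696). It passed with trended robust variances (0.0328), with array weights (0.0443) and without transgenic replicate 3 (0.0491, at 0.64). A second probe set stood at 9.34, 8.97 and 8.78 against 8.37, 8.79 and 8.65 in wild type, a difference of 0.43. The remaining 2 probe sets differed by -0.13 and -0.12. Its relative Sema5b differed by 0.37 ± 0.14 (SE; limma adjusted p = 0.171), with 7.30, 6.99 and 6.79 in transgenic and 6.79, 6.55 and 6.64 in wild-type lenses, and a second probe set at 0.21.

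Sema3a, a secreted repellent that in chick keeps sensory axons away from the lens, lay lower at every probe set without passing. The brightest stood at 8.76, 8.64 and 8.71 in transgenic lenses and 8.73, 9.15 and 9.17 in wild-type lenses, a difference of -0.31 ± 0.13 (SE; limma adjusted p = 0.202). The next stood at 7.64, 7.46 and 7.81 in transgenic lenses and 7.90, 8.27 and 8.23 in wild-type lenses, without overlap, a difference of -0.50 (limma adjusted p among all probe sets 0.0797). The third differed by -0.41. Without wild-type replicate 1, whose brightest value lay among the transgenic ones, Sema3a passed at -0.46 (limma adjusted p = 0.0462).

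Sema6a, a transmembrane semaphorin, differed by -0.26 ± 0.10 and Sema6d by 0.21 ± 0.08 (SE). Both had groups without overlap, and neither passed (limma adjusted p = 0.190 and 0.194). Sema3c, a secreted semaphorin of developing vessels, had the largest difference of the 72 genes, 0.67 ± 0.43 (SE; limma adjusted p = 0.404), from 1 array. It stood at 4.99, 5.27 and 6.79 in transgenic lenses and 5.39, 5.002 and 4.66 in wild-type lenses. A second, dimmer probe set stood at 4.48, 4.41 and 4.68 against 4.67, 4.48 and 4.44 in wild type, a difference of -0.0045. The high value of 6.79 fell on transgenic replicate 3. Pericyte and mesenchyme markers summed to 13.8 there, against 11.5 and 11.4 on the other transgenic arrays and 11.1 to 11.5 in wild type. Of these markers, Col1a1, Col1a2, Col3a1, Dcn, Lum and Postn were high there. Pdgfrb, Rgs5, Cspg4, Kcnj8, Pdgfra and Twist1 showed no comparable rise. The part of such tissue in the value was not tested. In all, 15 of the 20 semaphorins lay above 0, 75%, against 52.3% of all genes. After centring the count was 11, 55%, against 42.8% of all genes.

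**Figure D4:**
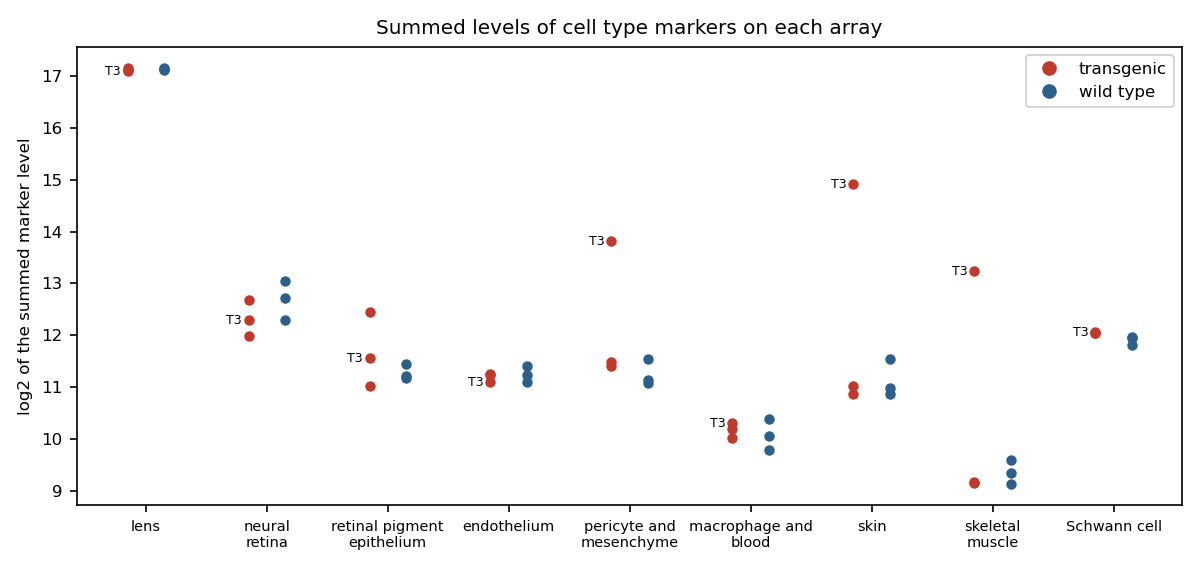
Log2 of the summed linear levels of each cell type's markers (vertical axis) on each array, transgenic left of wild type, with transgenic replicate 3 labelled T3. Skin, skeletal muscle and mesenchyme sums on T3 reach 14.9, 13.2 and 13.8, above all other arrays. Lens sums lie between 17.1 and 17.2 on every array, which cannot show equal lens content. They rest mostly on the brightest crystallins, whose values quantile normalisation makes nearly equal, such as Crybb1 at 14.59 on every array. In the same list Bfsp1 differed by -1.66 and Foxe3 by 4.64.

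The Slits and Robos showed no call. Slit2 stood at 8.58, 8.90 and 8.76 in transgenic lenses and 8.66, 8.52 and 8.41 in wild-type lenses, a difference of 0.22 ± 0.11 (SE; limma adjusted p = 0.299). Its 2 dimmer probe sets differed by -0.17 and -0.23. Slit1 differed by 0.22 and Slit3 by 0.034. Robo1 and Robo2, the receptors of axons, had means of 4.09 and 4.02 in transgenic and 4.10 and 4.03 in wild-type lenses, under the lower quartile of the arrays, so they could not be followed here. Robo4, the Robo of endothelium, stood at 6.42, 6.23 and 6.18 in transgenic and 6.54, 6.20 and 6.74 in wild-type lenses, with overlap. Robo3 differed by -0.16.

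Partners of these families were read from lists of 17 co-receptors and other ligands and 43 effectors, of which 57 genes were measured and 3 passed, 5.26%, against the same 4.55% of all genes. None of the 17 co-receptors and ligands passed. Of 40 measured effectors, 1 rose and 2 fell. The lists' median differences were -0.033 and 0.027, against 0.011 over all genes.

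Ngef, which encodes ephexin, a signalling protein that acts below Eph receptors, had the largest change of these partners. It stood at 8.10, 7.99 and 8.05 in transgenic lenses and 8.67, 9.01 and 9.08 in wild-type lenses, lower in transgenic lenses by a wide gap. It fell by 0.87 ± 0.12 on the log2 scale (SE; limma adjusted p = 0.00888), to 0.547 of the wild-type level, and passed with any 1 array left out, though only just without wild-type replicate 2. Evl, an actin regulator of the Ena/VASP family, stood at 8.11, 8.03 and 8.13 in transgenic and 8.43, 8.50 and 8.47 in wild-type lenses. It fell by 0.37 ± 0.08 (SE; limma adjusted p = 0.0406), and a second probe set fell by 0.61 (limma adjusted p among all probe sets 0.0102). At its brightest probe set the call was lost without any 1 array (0.0637 to 0.142).

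Srgap1, a signalling protein that binds Robo receptors, stood at 6.94, 6.98 and 6.93 in transgenic lenses and 6.35, 6.41 and 6.52 in wild-type lenses. It rose by 0.53 ± 0.08 (SE; limma adjusted p = 0.0158), but its second, dimmer probe set differed by -0.27, so the direction depends on the probe set. The call was lost without wild-type replicate 2 and without transgenic replicates 1 or 2, 1 at a time (0.0525 to 0.0757) and with the mean of its probe sets (0.393). Flrt2, a ligand of Unc5 receptors, stood at 9.61, 9.34 and 9.34 in transgenic lenses and 9.74, 10.05 and 10.11 in wild-type lenses. Its difference of -0.54 ± 0.13 just missed the threshold (SE; limma adjusted p = 0.0574), and it passed in 6 other settings, among them the values as deposited (0.0330) and centring (0.0252). Its other probe sets differed by -0.30 and -0.56. Neo1, a receptor for netrins, differed by 0.30 and Draxin, a secreted netrin antagonist, by -0.32, and neither passed (limma adjusted p = 0.0905 and 0.132).

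Several of the 72 genes were measured more than once, by 159 probe sets in all. Tested on their own among all probe sets, 3 of the 159 passed, those of Epha2, Plxnb3 and Unc5b above, 1.89%, against 3.68% of all 45037 probe sets. For 24 genes another probe set reached the median level. Of 38 such probe sets, 24 went the same way as the brightest one, 63.2%, against 61.5% over all genes. Of 24 guidance genes with 3 or more probe sets, 5 had differences of 1 sign at all of them, 20.8%, against 28.2% of such genes overall. These were Epha5, Efnb2, Nrp1, Sema3a and Sema6a, and the other 19, among them Sema5a, Sema6c and Slit2, had both signs.

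**Figure D5:**
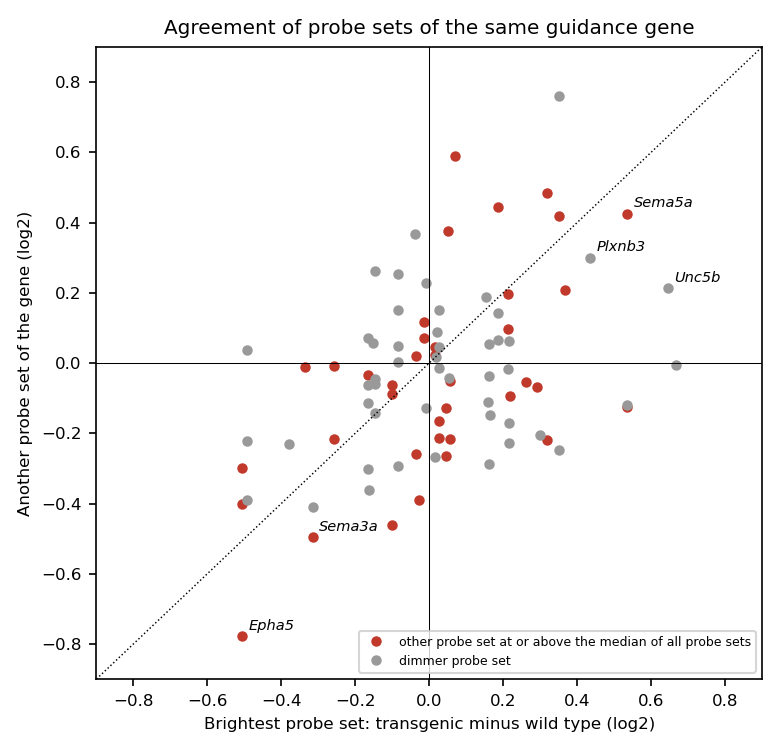
Difference (transgenic minus wild type, log2) at the brightest probe set of a gene on the horizontal axis and at each of its other probe sets on the vertical axis, for guidance genes with several probe sets. Points on the dotted line agree in size; of the 38 red points, probe sets at or above the median level, 24 share the sign of the brightest.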

How the data were processed

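The authors deposited log2 values, 1 for each probe set on each array, a scale read from the range of the values. How these were summarised and normalised was not given in the sources used here. Labelling of total RNA with biotin used in vitro transcription (IVT), per the labels. After 64 control probe sets were set aside, 45037 remained. Upper quartiles differed by 0.12, above a limit of 0.1, so arrays were quantile normalised (limma 3.58.1, R 4.3.3). Gene symbols came from the platform annotation at GEO and were updated through RefSeq (GRCm38.p6; 99.4% matched); 34945 had 1 symbol, 932 several and 9160 none here. Each of 18193 genes took its probe set with the highest mean. Genotypes were compared with limma's lmFit and eBayes, adjusting p-values by Benjamini-Hochberg over every gene, with calls at 0.05. Named genes are the called ones, the 3 with the smallest p in each family or partner list, and 10 genes with lens or vessel roles; others with large spread, shift or probe set contrast were named after their values were seen. The members and lists were chosen with earlier results of these data known. Replicate numbers were not taken to pair the samples. Deviations of same-numbered arrays correlated at -0.0523, 0.0842 and 0.0277, and those of other pairs at -0.119 to 0.0747. Such correlations cannot show whether the samples are paired. The fit was tested on simulated data. The number of arrays limits the precision.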

Additional observations from a re-analysis of the deposited data

How the results depend on the processing

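The count of guidance genes called was 2 on the values as deposited and after centring, 4 with trended robust variances or array weights, 1 when probe sets were averaged per gene, and 5 at an adjusted p under 0.1. With 1 array left out it was 0 to 3, where limma gave 11 to 17 genes at an unadjusted p under 0.05; over all genes it was 226 to 574 and over the partner lists 1 to 3. Over all genes, array weights gave 1389 calls and an adjusted p under 0.1 gave 1766, with 5 in the partner lists. A replicate block treats same-numbered samples as pairs. With it, limma called 0 guidance genes (13 at an unadjusted p under 0.05), 0 partner genes (13) and 223 genes in all. For Epha2 the limma adjusted p was 0.0927, for Plxnb3 0.0931, for Unc5b 0.107 and for Ngef 0.0501.

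Signs turned for genes that did not pass, and for Srgap1. On deposited values these were Slit3 (-0.015), Robo2 (0.023), Efna5 (-0.056) and Robo1 (0.021), after centring Slit3 (-0.051) and Efna5 (-0.092), and with array weights Slit3 (-0.065), Robo2 (0.035) and Robo1 (0.12). With the mean of the probe sets they were Slit2 (-0.060) and Robo1 (0.030), and at the second brightest probe set, among the named genes, Plxnb1 (-0.068), Plxna1 (-0.054), Slit2 (-0.17), Slit1 (-0.095), Ntn4 (0.057), Unc5c (-0.21) and Srgap1 (-0.27). Over all 47 guidance genes with several probe sets, the sign turned there in 18, 38.3%, against 41% of such genes overall. The cause was not tested. With 1 array left out, differences ran from -0.19 to 0.22 for Slit3, -0.11 to 0.077 for Robo2, -0.14 to 0.24 for Robo1, -0.019 to 0.084 for Efna5 and -0.11 to 0.070 for Plxnd1. In the simulated arrays, with 3 a group, changes of 0.5 were mostly missed. Genes below the lower quartile of the arrays could not be followed.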

Other observations

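Promoter windows of 250 bases were listed for 62 of the 72 guidance genes. A GC box (GGGCGG, either strand) was found in 47 of them, 75.8%, against 53.4% of 14452 measured genes. The forkhead core TAAACA was found in 2, Epha6 and Sema4d, 3.23%, against 10.8%. The median GC content was 64.2% over the windows of guidance genes. It was 52.4% over all 32851 annotated windows, which include genes not measured here and of which 32.7% had a GC box. These are descriptions of sequence, and no binding was measured here. Neither gene passed the comparison of the genotypes. Sema4d stood at 7.92, 8.23 and 7.88 in transgenic and 7.98, 8.10 and 7.87 in wild-type lenses. Epha6 stood at 3.62, 3.68 and 3.77 in transgenic and 3.75, 4.02 and 3.79 in wild-type lenses. These Epha6 values lay below the lower quartile of the arrays, so it could not be followed here.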
